A study of Homo sapiens with 16 samples.

Results

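Jurkat and HSB-2, 2 established cell lines of T-lineage acute lymphoblastic leukemia (T-ALL), were compared in their transcriptional response to partial knock-down of USP7. All 16 libraries of the series entered the comparison, and the members were the genes whose response to USP7 short hairpin RNA (shRNA) differed between the lines, chosen by the interaction of line with shRNA. Each line had 2 wild-type (WT) libraries, 2 from cells with a scrambled control, 2 from cells with USP7 shRNA-4057 and 2 from cells with USP7 shRNA-4058. In each line the 4 WT and scrambled libraries formed the control group and the 4 hairpin libraries the shRNA group. Both lines carry the genotype label TAL1+, and the hairpins were delivered by lentivirus. Each line is a single tumor-derived culture, so a difference between the lines is a difference between these 2 cultures and not between classes of T-ALL. The labels do not say whether the 2 replicates of a group were separate transductions, and the p-values measure only the spread between these libraries.

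USP7 removes ubiquitin from proteins and so protects them from degradation. Its known substrates include MDM2 and p53, so it acts on the p53 pathway from several sides, and it also acts on replication and DNA repair factors. TAL1 is a transcription factor that is silent in normal mature T cells and is switched on in a large class of T-ALL, where it pairs with E proteins such as TCF3 and TCF12 at E-box sequences.

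Of 57820 genes in the table, 21821 had enough counts to be tested. A gene was called when its Benjamini-Hochberg adjusted p in the edgeR quasi-likelihood test was under 0.05, and levels are given as CPM, the counts scaled to the library total after TMM normalization. A gene was counted as opposite when the interaction, the Jurkat effect and the HSB-2 effect were each called and the 2 effects had different signs. Library totals lay between 76.6 and 235 M counts, so that an absent gene would lie below 0.0127 to 0.0392 CPM (3 counts). The 12 T-cell markers were all detected, at a summed level of 3629.6 to 3949 CPM in Jurkat control and 3182 to 3354 CPM in Jurkat shRNA libraries, against 2857 to 3353 and 3786 to 4225 CPM in HSB-2. Summed myeloid markers stayed at or under 1.35 CPM and erythroid markers at or under 4.58 CPM in each library. The sum of 8 epithelial markers was 15.8 to 26.1 CPM in HSB-2 control and 34.2 to 57.4 CPM in HSB-2 shRNA libraries, and that of 9 B-cell markers was 39.6 to 68.7 CPM in Jurkat control and 25.8 to 26.5 CPM in Jurkat shRNA libraries; the part of either in the results was not tested. In bulk RNA, fewer cells of a kind and less RNA per cell cannot be told apart.

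USP7 itself, the target of both hairpins (ENSG00000187555.10; GRCh37, chromosome 16, 8985954 to 9069185, minus strand), lay in Jurkat at 396 and 386 CPM in the WT libraries, 384 and 388 in the scrambled, 140.2 and 146 with shRNA-4057 and 245 and 242 with shRNA-4058. In HSB-2 it lay at 236 and 243 CPM in the WT libraries, 227 and 219.96 in the scrambled, 144 and 149 with shRNA-4057 and 161 and 156 with shRNA-4058. All 8 shRNA libraries were below the controls of their line, and in Jurkat the libraries with shRNA-4057 were lower than those with shRNA-4058. USP7 changed on the log2 scale by -1.01 (SE 0.14, adjusted p = 1.3e-04) in Jurkat and -0.60 (SE 0.14, adjusted p = 0.0047) in HSB-2. The difference between these effects was 0.41 (SE 0.20, adjusted p = 0.122) and was not called with both hairpins together, while with shRNA-4057 alone it was 0.78 (adjusted p = 8.7e-05). With shRNA-4057 alone the fall of USP7 was thus larger in Jurkat than in HSB-2, and the part of this difference in the results below was not tested.

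The responses of the lines diverged in a large part of the transcriptome. The interaction was called in 7701 genes (35.3% of those tested), of which 4129 (18.9%) had the higher effect in HSB-2 and 3572 (16.4%) the higher effect in Jurkat. In Jurkat, 2348 genes rose (10.8%) and 3411 fell (15.6%), 26.4% in all. In HSB-2, 3176 rose (14.6%) and 3033 fell (13.9%), 28.5% in all. Of the 1953 genes called in both lines (8.95%), 1449 moved in opposite directions (6.64% of those tested) and 504 in the same direction (2.31%). The opposite genes comprised 879 that fell in Jurkat and rose in HSB-2 (4.03%) and 570 that rose in Jurkat and fell in HSB-2 (2.61%). With upper quartile in place of TMM scaling this split was 692 and 747, so which direction held more genes depended on the scaling. The shRNA and control libraries did not overlap in either line for 1130 of the 1449 opposite genes (5.18% of those tested), and 79 (0.362%) changed by 2-fold or more in both lines. Without either of the 2 Jurkat scrambled libraries the opposite genes that rose in Jurkat numbered 374 (without replicate 1) and 371 (without replicate 2), and the genes called in Jurkat fell from 5759 to 3692 without replicate 2. A further 2496 genes had a called interaction with a called effect in Jurkat alone (11.4%), and 2725 with a called effect in HSB-2 alone (12.5%).

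**Figure D1:**
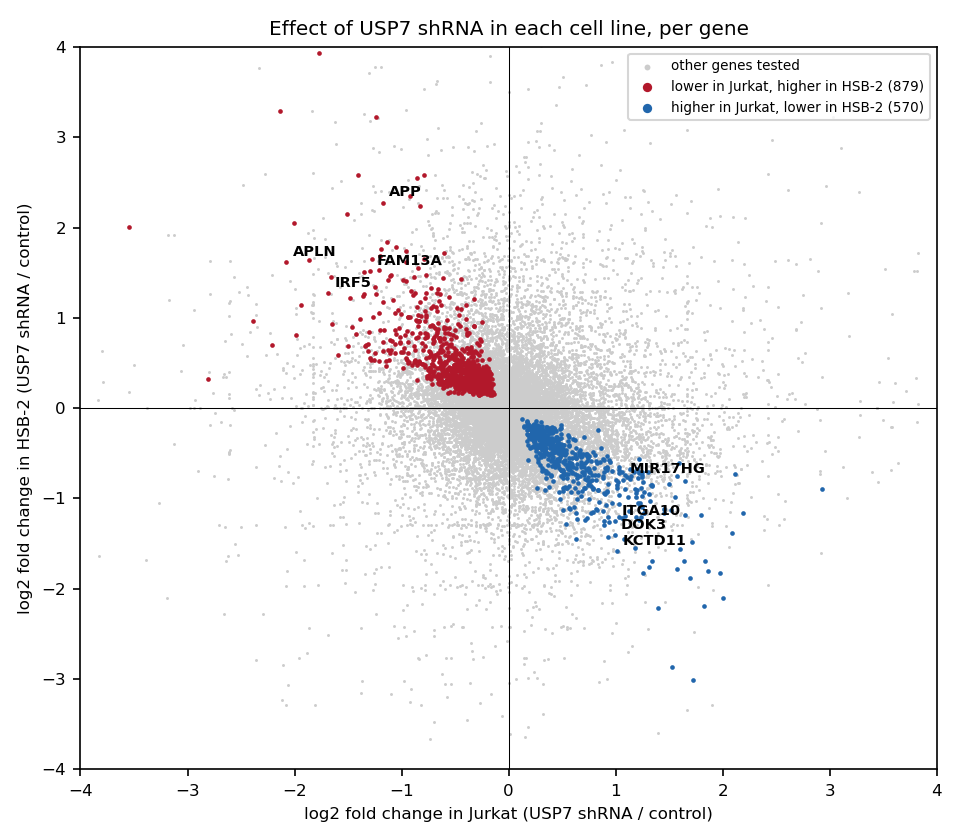
Each point is a gene tested, placed by its log2 fold change (USP7 shRNA over control) in Jurkat on the horizontal and in HSB-2 on the vertical axis. The 879 red genes fell in Jurkat and rose in HSB-2, the 570 blue genes did the reverse, 8 of the most changed are named, and 39 genes lie beyond the limits of 4 on the axes.

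Among the 12561 genes that averaged 1 CPM or more in both lines, the effects of the 2 lines had the same sign in 40.0%, with a Pearson r of -0.16 across genes. The lines share no library, but genes are not independent replicates and this is a description of these 2 cultures. The hairpins differed in this respect, with r = 0.05 and 49.2% of signs shared for shRNA-4057 and r = -0.29 and 35.7% for shRNA-4058.

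Genes that fell in Jurkat and rose in HSB-2 with the largest change included the RhoGAP-domain gene FAM13A, the interferon regulatory factor IRF5, the apelin peptide hormone APLN, the amyloid precursor APP and the glycogen phosphatase subunit PPP1R3B. FAM13A (chromosome 4, 89647106 to 90032549, minus strand) lay in Jurkat at 1.51 and 1.48 CPM in the WT libraries, 1.76 and 2.05 in the scrambled, 0.6599 and 0.681 with shRNA-4057 and 0.618 and 0.816 with shRNA-4058. In HSB-2 it lay at 12.4 and 12.6 CPM in the WT libraries, 6.099 and 5.66 in the scrambled, 23.6 and 24.9 with shRNA-4057 and 29.9 and 26.98 with shRNA-4058. Every Jurkat shRNA library was lower, and every HSB-2 shRNA library higher, than the controls of its line. FAM13A changed on the log2 scale by -1.29 (SE 0.25, adjusted p = 0.0015) in Jurkat and 1.52 (SE 0.22, adjusted p = 1.5e-04) in HSB-2, and the interaction was 2.81 (SE 0.33, adjusted p = 2.3e-05). The count without strand information could include the antisense gene FAM13A-AS1.

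IRF5 (chromosome 7, 128577511 to 128590092, plus strand), a transcription factor of the innate immune response, lay in Jurkat at 1.38 and 1.37 CPM in the WT libraries, 2.85 and 2.39 in the scrambled, 0.458 and 0.535 with shRNA-4057 and 0.792 and 0.6798 with shRNA-4058, and in HSB-2 at 1.65 and 1.36 CPM in the WT libraries, 0.7904 and 1.001 in the scrambled, 2.69 and 2.21 with shRNA-4057 and 3.51 and 3.18 with shRNA-4058. The groups did not overlap in either line, although in Jurkat the scrambled libraries were above the WT ones and in HSB-2 below them. The log2 fold changes were -1.69 (SE 0.29, adjusted p = 5.5e-04) and 1.27 (SE 0.27, adjusted p = 0.0026). PPP1R3B (chromosome 8, 8993765 to 9009084, minus strand), which brings protein phosphatase 1 to glycogen, gave Jurkat values of 57.9 and 55.1 (WT), 102 and 102 (scrambled), 37.9 and 38.7 (shRNA-4057) and 40.04 and 34.98 CPM (shRNA-4058). Its HSB-2 values were 22.5 and 23.6 (WT), 21.5 and 21.2 (scrambled), 43.8 and 46.7 (shRNA-4057) and 46.2 and 46.7 CPM (shRNA-4058), where the controls lay close together and all hairpin libraries lay above them. Its effects were -1.06 in Jurkat and 1.05 in HSB-2 on the log2 scale, and FAM13A, IRF5 and PPP1R3B were opposite against each control alone and with each hairpin alone.

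APLN (chromosome X, 128779236 to 128788933, minus strand), which encodes the ligand of the apelin receptor, lay in Jurkat at 0.838 and 1.08 (WT), 2.89 and 2.61 (scrambled), 0.414 and 0.272 (shRNA-4057) and 0.467 and 0.586 CPM (shRNA-4058) and in HSB-2 at 8.35 and 8.51 (WT), 1.37 and 1.33 (scrambled), 12.4 and 11.01 (shRNA-4057) and 18.1 and 18.1 CPM (shRNA-4058). Its interaction of 3.69 (SE 0.80, adjusted p = 0.0022) was the largest among the 20 genes chosen by size, but the controls were far apart in both lines. APP (chromosome 21, 27252846 to 27543446, minus strand) showed the same arrangement, with Jurkat values of 8.02 and 7.07 (WT), 18.5 and 19.7 (scrambled), 5.27 and 5.397 (shRNA-4057) and 6.29 and 6.63 CPM (shRNA-4058) and HSB-2 values of 1.64 and 1.33 (WT), 0.369 and 0.387 (scrambled), 3.49 and 3.53 (shRNA-4057) and 5.26 and 5.696 CPM (shRNA-4058). Against the scrambled libraries alone APP was called opposite and against the WT libraries alone it was not. The same was so for the zinc finger gene ZNF853 (-1.20 in Jurkat and 1.76 in HSB-2), the tweety family membrane protein TTYH1 (-1.11 in Jurkat and 1.46 in HSB-2), the oxygen-sensing prolyl hydroxylase EGLN3 (-1.01 in Jurkat and 1.04 in HSB-2) and the T-cell costimulatory receptor TMIGD2 (-0.99 in Jurkat and 1.42 in HSB-2). MCTP2, a calcium-binding membrane protein, changed by -1.08 in Jurkat and 1.19 in HSB-2. MCTP2 and APLN were called opposite against each control alone, but with neither hairpin alone. APP, ZNF853 and TMIGD2 were likewise called opposite with neither hairpin alone. TTYH1 and EGLN3 were called opposite with shRNA-4057 alone, but not with shRNA-4058 alone.

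In the reverse direction, the ubiquitin ligase adaptor KCTD11, the adaptor protein DOK3, the collagen-binding integrin ITGA10 and the microRNA host gene MIR17HG rose in Jurkat and fell in HSB-2. KCTD11 (chromosome 17, 7255208 to 7258263, plus strand), which hands substrates to the CUL3 ligase, lay in Jurkat at 5.23 and 5.81 CPM in the WT libraries, 4.4 and 5.03 in the scrambled, 12.002 and 12.5 with shRNA-4057 and 8.15 and 8.5999 with shRNA-4058. In HSB-2 it lay at 7.31 and 7.66 CPM in the WT libraries, 5.22 and 5.92 in the scrambled, 2.63 and 2.63 with shRNA-4057 and 2.001 and 1.39 with shRNA-4058. No control library overlapped a hairpin library in either line, and in Jurkat the rise was greater with shRNA-4057. KCTD11 changed by 1.01 (SE 0.19, adjusted p = 0.0013) in Jurkat and -1.59 (SE 0.20, adjusted p = 5.0e-05) in HSB-2.

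DOK3 (chromosome 5, 176928905 to 176938275, minus strand), an adaptor that dampens immune receptor signalling, lay in Jurkat at 2.33 and 2.52 CPM in the WT libraries, 1.85 and 2.12 in the scrambled, 5.32 and 4.48 with shRNA-4057 and 3.58 and 4.17 with shRNA-4058, and in HSB-2 at 10.2 and 10.3 CPM in the WT libraries, 9.98 and 10.7 in the scrambled, 3.24 and 3.44 with shRNA-4057 and 4.54 and 4.25 with shRNA-4058. The WT and scrambled libraries of a line lay near each other here, and the hairpin libraries stood apart from both. The effects were 0.99 (SE 0.14, adjusted p = 1.5e-04) and -1.41 (SE 0.14, adjusted p = 8.3e-06). In PRR22 (0.88 in Jurkat and -1.14 in HSB-2) the controls were not called different in either line. In CFAP44, a gene of motile cilia (0.79 in Jurkat and -1.15 in HSB-2), the Jurkat scrambled libraries lay below the WT ones, at a difference of -0.47 on the log2 scale (adjusted p = 1.2e-05), with the hairpin libraries above both. KCTD11, DOK3, CFAP44 and PRR22 were called opposite against each control alone and with each hairpin alone.

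MIR17HG (chromosome 13, 91999940 to 92049846, plus strand), the host transcript of the growth-promoting miR-17-92 cluster and a known MYC target, lay in Jurkat at 6.37 and 6.82 (WT), 6.12 and 6.31 (scrambled), 8.702 and 9.899 (shRNA-4057) and 18.8 and 16.4 CPM (shRNA-4058). In HSB-2 it lay at 9.76 and 10.1 (WT), 14.98 and 14.03 (scrambled), 6.04 and 6.46 (shRNA-4057) and 7.196 and 8.52 CPM (shRNA-4058). In Jurkat the libraries with shRNA-4058 stood above those with shRNA-4057, and in HSB-2 the scrambled libraries stood above the WT ones. Its effects were 1.07 (SE 0.21, adjusted p = 0.0016) and -0.79 (SE 0.21, adjusted p = 0.01), and against the WT libraries alone it was not called opposite. The mature miRNAs of the cluster are not measured by these libraries. ITGA10 (1.0 in Jurkat and -1.26 in HSB-2) and QRICH2 (0.78 in Jurkat and -0.80 in HSB-2) completed this direction together with 3 genes whose counts are uncertain. These were SNORD12B (1.26 in Jurkat and -0.93 in HSB-2), a small nucleolar RNA inside ZFAS1, PCDHGB6 (0.92 in Jurkat and -0.94 in HSB-2), which shares exons with the protocadherin gamma cluster, and ZDHHC11 (0.89 in Jurkat and -0.94 in HSB-2), a palmitoyltransferase gene with a near-identical copy. ITGA10 was not called opposite against either control alone or with either hairpin alone. PCDHGB6 was not called opposite against the WT libraries alone or with either hairpin alone. For QRICH2 and ZDHHC11 the call was lost against the WT libraries alone and with shRNA-4058 alone, and for SNORD12B with shRNA-4057 alone.

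**Figure D2:**
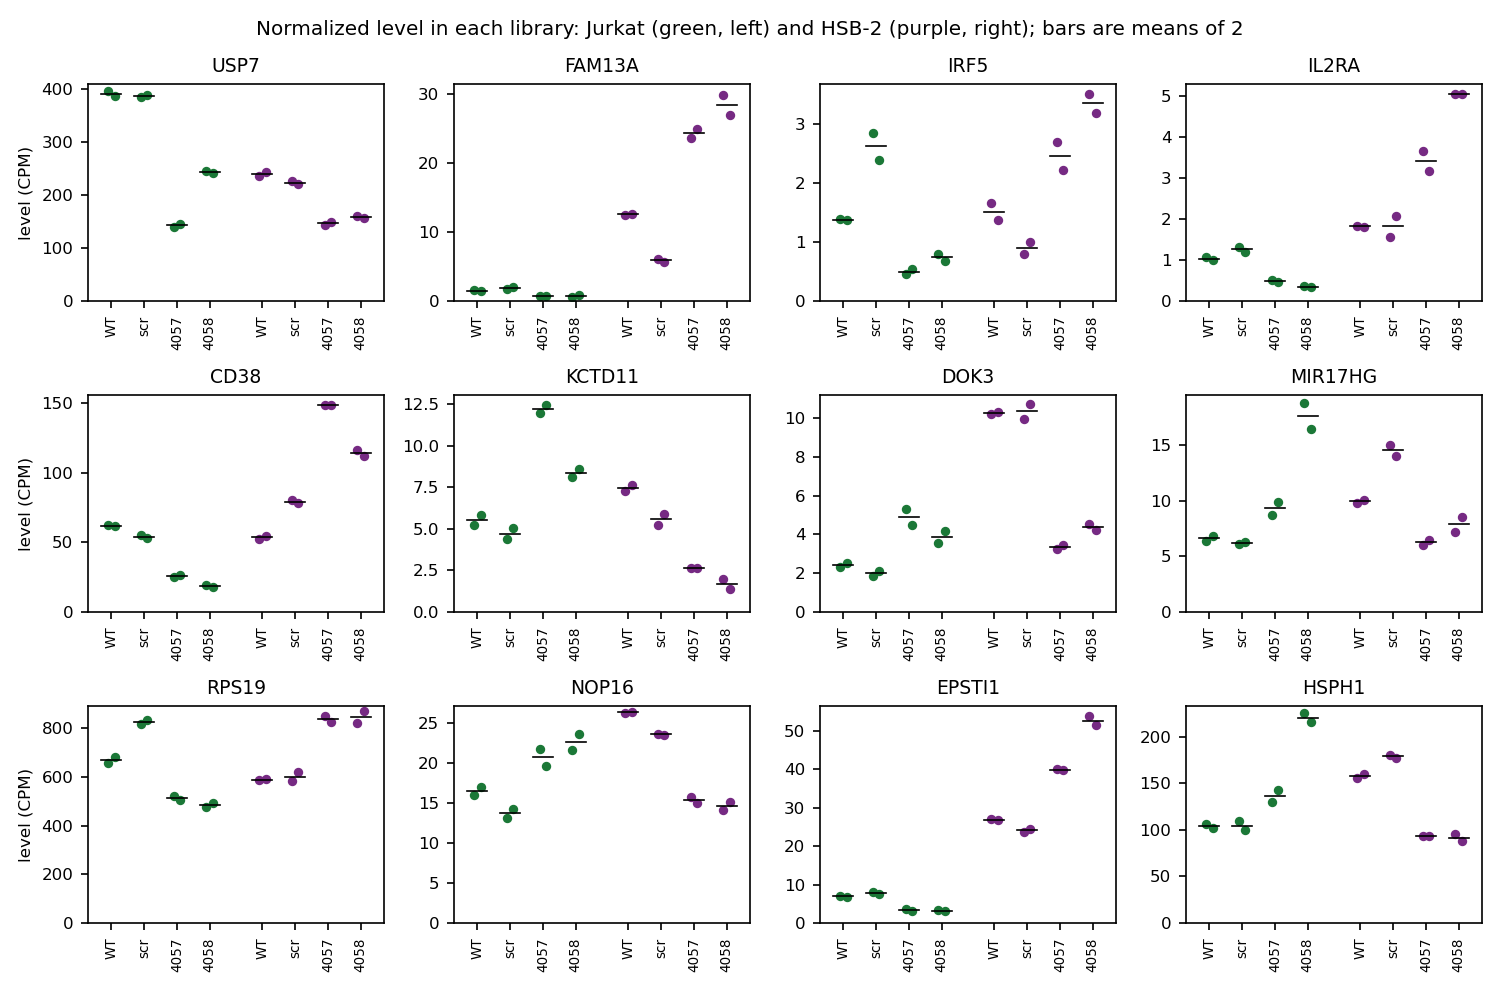
Level in CPM of USP7 and 11 opposite genes in each library (points, 2 per group) with the mean of the 2 (bars), for Jurkat in green and HSB-2 in purple; WT is wild-type, scr is scrambled, and the others are shRNA-4057 and shRNA-4058. USP7 fell in both lines, FAM13A, IRF5, IL2RA, CD38, RPS19 and EPSTI1 fell in Jurkat and rose in HSB-2, and KCTD11, DOK3, MIR17HG, NOP16 and HSPH1 rose in Jurkat and fell in HSB-2.

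Gene lists were then compared member by member, and the share of opposite members is to be read against the shares of all genes, which were 4.03% for the fall in Jurkat and 2.61% for the rise. Cytosolic ribosomal protein genes encode the protein part of the ribosome. Of 79 tested, 75 fell and 0 rose in Jurkat, while in HSB-2 30 rose and 1 fell. All 30 that rose in HSB-2 also fell in Jurkat and had a called interaction, so 30 of 79 members (37.97%) were opposite, against 4.03% of all genes. The median log2 fold change over the list was -0.54 in Jurkat and 0.20 in HSB-2, where over all genes it was -0.01 in both.

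RPS19, a protein of the small subunit, lay in Jurkat at 656 and 683 CPM in the WT libraries, 817 and 834 in the scrambled, 521 and 505 with shRNA-4057 and 477 and 494 with shRNA-4058, and in HSB-2 at 587 and 592 CPM in the WT libraries, 582 and 622 in the scrambled, 851 and 826 with shRNA-4057 and 824 and 870.5 with shRNA-4058. In HSB-2 the WT and scrambled libraries lay together and all hairpin libraries lay above them. Its effects were -0.58 (SE 0.07, adjusted p = 4.8e-05) and 0.50 (SE 0.07, adjusted p = 1.5e-04). RPL12, a protein of the large subunit, changed by -0.65 in Jurkat and 0.37 in HSB-2, RPL36 by -0.75 in Jurkat and 0.36 in HSB-2 and RPS3 by -0.71 in Jurkat and 0.35 in HSB-2. Ribosomal protein genes have many processed pseudogene copies, RPL36 overlaps HSD11B1L, and RPS3 holds the small nucleolar RNA gene SNORD15A, so these counts are uncertain. The number of opposite members was 67 against the WT libraries alone and 30 against the scrambled alone, and 9 with shRNA-4057 and 8 with shRNA-4058. When each library was corrected for GC content and length it was 18, with medians of -0.40 and 0.15.

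Ribosome biogenesis genes were called only in the other direction in each line. They encode RNA polymerase I subunits and the nucleolar factors that cut, modify and fold ribosomal RNA. Of 23 tested, 11 rose and 0 fell in Jurkat, and 0 rose and 18 fell in HSB-2. All 11 that rose in Jurkat were opposite (47.8%, against 2.61% of all genes), namely NOP56, NOP58, NOP2, NOP16, RRP12, WDR12, NOLC1, POLR1A, POLR1B, UTP20 and RRS1. The median was 0.23 in Jurkat and -0.47 in HSB-2.

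NOP16, a factor of large subunit assembly, lay in Jurkat at 16.02 and 17.004 CPM in the WT libraries, 13.2 and 14.3 in the scrambled, 21.7 and 19.7 with shRNA-4057 and 21.7 and 23.6 with shRNA-4058, and in HSB-2 at 26.2 and 26.4 CPM in the WT libraries, 23.6 and 23.5 in the scrambled, 15.8 and 14.97 with shRNA-4057 and 14.1 and 15.1 with shRNA-4058. The hairpin libraries were above the controls in Jurkat and below them in HSB-2, without overlap. Its effects were 0.52 (SE 0.08, adjusted p = 3.8e-04) and -0.73 (SE 0.08, adjusted p = 2.3e-05). POLR1B, the second-largest subunit of RNA polymerase I, lay in Jurkat at 32.9 and 30.96 (WT), 29.2 and 28.5 (scrambled), 38.4 and 39.96 (shRNA-4057) and 55.5 and 54.7 CPM (shRNA-4058). In HSB-2 it lay at 47.4 and 45.2 (WT), 58.7 and 56.9 (scrambled), 32.6 and 36.1 (shRNA-4057) and 31.5 and 30.9 CPM (shRNA-4058). The Jurkat rise of POLR1B was greater with shRNA-4058, and its effects were 0.63 in Jurkat and -0.67 in HSB-2. UTP20, part of the small subunit processome, changed by 0.51 in Jurkat and -0.74 in HSB-2, and RRP12, which helps to export both subunits from the nucleus, by 0.68 in Jurkat and -0.54 in HSB-2. NOP16 overlaps HIGD2A and ARL10 on the other strand.

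The list's values moved with the hairpin, a difference that was not tested itself. With shRNA-4057 the Jurkat median was -0.02 and 6 members were opposite, and with shRNA-4058 the Jurkat median was 0.44 and 18 were. The HSB-2 medians were -0.42 and -0.52. Against the WT libraries alone 6 members were opposite, and against the scrambled alone 8.

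MYC, the transcription factor that drives ribosome production, was itself opposite. It lay in Jurkat at 143 and 152 CPM in the WT libraries, 130.2 and 136 in the scrambled, 144 and 141 with shRNA-4057 and 212 and 228 with shRNA-4058, and in HSB-2 at 355 and 361 CPM in the WT libraries, 411 and 430.02 in the scrambled, 269.7 and 263 with shRNA-4057 and 320.3 and 329 with shRNA-4058. In Jurkat only the shRNA-4058 libraries stood above all controls, and the shRNA-4057 libraries lay among them. The effects were 0.37 (SE 0.13, adjusted p = 0.0497) and -0.40 (SE 0.13, adjusted p = 0.0356), the first just inside the threshold, and MYC was opposite with shRNA-4058 alone but not with shRNA-4057 alone or against either control alone. MYCN, its close relative, moved the other way, by -0.66 in Jurkat and 0.94 in HSB-2. It was called opposite against the scrambled libraries alone, but not against the WT libraries alone or with either hairpin alone.

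MYC and its partner MAX bind the E-box letters CACGTG. A RefSeq promoter (GRCh38.p14, 250 bases before to 50 after the start) was matched by symbol to 12405 of the tested genes. CACGTG, which reads the same on both strands, was present in 9.69% of these promoters, in 7 of 18 ribosome biogenesis promoters (38.9%), in 15.7% of the opposite genes that rose in Jurkat and in 8.54% of those that fell there. The E-boxes read by TAL1 and E proteins were searched on both strands, and differences between the shares were not tested for any E-box. CAGATG was in 10.1% of all promoters, 9.47% of the opposite genes that rose in Jurkat and 10.7% of those that fell. For CAGCTG the shares were 17.3%, 14.8% and 16.5%, and for CAGGTG 18.9%, 16.6% and 16.8%. Among ribosome biogenesis promoters CAGATG was in 1, CAGCTG in 5 (27.8%) and CAGGTG in 0 of 18. A match is a description of the letters and shows no binding. Of the 7 opposite ribosome biogenesis genes with a promoter 2 held CACGTG, of which UTP20 was the one with the letters upstream of its start, shown here as the 200 bases before the start from RefSeq (chr12:101279905-101280104, plus strand), with the E-box in capitals.
UTP20: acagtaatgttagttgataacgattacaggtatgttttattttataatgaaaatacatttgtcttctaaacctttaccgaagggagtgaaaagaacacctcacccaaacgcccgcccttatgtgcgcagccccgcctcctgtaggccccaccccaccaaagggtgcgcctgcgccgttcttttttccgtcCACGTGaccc

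Heat shock genes, which encode the chaperones that refold damaged proteins, split between the lines as well. Of 15 tested, 5 rose and 1 fell in Jurkat, and 2 rose and 7 fell in HSB-2. All 5 that rose in Jurkat fell in HSB-2, namely HSPH1, DNAJA1, HSP90AA1, HSPE1 and CHORDC1 (33.3% of the list, against 2.61% of all genes). The number opposite in this direction was 2 against the scrambled libraries alone, 2 against the WT libraries alone, 3 with shRNA-4057 alone and 6 with shRNA-4058 alone. HSF1, the transcription factor that switches these genes on, was opposite in the other direction, by -0.34 in Jurkat and 0.17 in HSB-2. HSPH1, a nucleotide exchange factor of the HSP70 chaperone, lay in Jurkat at 106 and 102 CPM in the WT libraries, 109.8 and 99.7 in the scrambled, 129.98 and 143 with shRNA-4057 and 226 and 216 with shRNA-4058, and in HSB-2 at 156 and 161 CPM in the WT libraries, 181 and 178 in the scrambled, 94.02 and 93.9 with shRNA-4057 and 95.1 and 87.7 with shRNA-4058. Its hairpin libraries were all higher than the controls in Jurkat and all lower in HSB-2, and its effects were 0.77 (SE 0.13, adjusted p = 6.4e-04) and -0.86 (SE 0.13, adjusted p = 2.5e-04). CHORDC1, a cochaperone of HSP90, changed by 0.53 in Jurkat and -0.88 in HSB-2.

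HSP90AA1, the inducible HSP90, lay in Jurkat at 891 and 869 (WT), 1004 and 990.5 (scrambled), 979 and 1019 (shRNA-4057) and 1646 and 1621 CPM (shRNA-4058) and in HSB-2 at 1143 and 1168 (WT), 1284 and 1267 (scrambled), 836 and 866 (shRNA-4057) and 895 and 893 CPM (shRNA-4058). In Jurkat its shRNA-4057 libraries overlapped the controls and its shRNA-4058 libraries stood well above them, and it was opposite with shRNA-4058 alone only. The mitochondrial cochaperone HSPE1 (0.51 in Jurkat and -0.92 in HSB-2) had the same dependence on the hairpin, and it overlaps HSPD1 on the other strand. The list's Jurkat median was -0.21 with shRNA-4057 and 0.43 with shRNA-4058, and its HSB-2 medians were -0.42 and -0.27. Outside this list, the chaperones of the endoplasmic reticulum HSP90B1 (0.28 in Jurkat and -0.36 in HSB-2) and PDIA3 (0.17 in Jurkat and -0.15 in HSB-2) were opposite in the same direction.

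HSF1 binds inverted GAA units, searched here as GAANNTTC, which reads the same on both strands. These letters were in 4.75% of all matched promoters and in 6 of 14 of the heat shock list (42.9%). Of the 5 opposite heat shock genes with a promoter 2 held them. The letters were in 5.33% of the opposite genes that rose in Jurkat and 4.73% of those that fell. The 200 bases before the start are given for the opposite genes with a match there, CHORDC1 (chr11:90223050-90223249, minus strand) and DNAJA1 (chr9:33025073-33025272, plus strand), from GRCh38.p14 with the matches in capitals. In CHORDC1 the matches began 60 and 50 bases before the start, and in DNAJA1 198 bases before it.
CHORDC1: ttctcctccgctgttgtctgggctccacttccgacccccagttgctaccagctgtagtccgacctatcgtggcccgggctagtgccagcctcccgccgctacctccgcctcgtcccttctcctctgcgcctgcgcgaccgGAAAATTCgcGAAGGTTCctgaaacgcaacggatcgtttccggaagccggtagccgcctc
DNAJA1: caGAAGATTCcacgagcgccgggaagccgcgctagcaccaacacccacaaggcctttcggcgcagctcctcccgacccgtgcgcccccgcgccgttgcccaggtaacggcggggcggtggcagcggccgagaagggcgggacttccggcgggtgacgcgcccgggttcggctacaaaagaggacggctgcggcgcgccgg

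Interferon response genes, the antiviral program that cells switch on after interferon binds its receptor, were called mostly lower in Jurkat and higher in HSB-2. Of 36 tested, 1 rose and 13 fell in Jurkat, whereas 20 rose and 0 fell in HSB-2. The 10 opposite members (27.8%, against 4.03% of all genes) included the transcription factor STAT2 and the effectors ISG20, OAS3, IFI6, DHX58, BST2, RSAD2, CMPK2 and EPSTI1. The median was -0.16 in Jurkat and 0.44 in HSB-2. EPSTI1 lay in Jurkat at 7.13 and 6.81 CPM in the WT libraries, 8.04 and 7.47 in the scrambled, 3.55 and 3.13 with shRNA-4057 and 3.24 and 3.21 with shRNA-4058, and in HSB-2 at 26.98 and 26.8 CPM in the WT libraries, 23.8 and 24.4 in the scrambled, 39.95 and 39.9 with shRNA-4057 and 53.8 and 51.4 with shRNA-4058. Its hairpin libraries were below the controls in Jurkat and above them in HSB-2, without overlap in either line. Its effects were -1.16 (SE 0.10, adjusted p = 2.7e-06) and 0.86 (SE 0.10, adjusted p = 1.9e-05).

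IFI6, a mitochondrial antiviral protein, lay in Jurkat at 27.5 and 29.7 (WT), 33.5 and 34.8 (scrambled), 18.5 and 17.8 (shRNA-4057) and 20.7 and 20.1 CPM (shRNA-4058) and in HSB-2 at 9.995 and 10.2 (WT), 8.51 and 8.01 (scrambled), 13.5 and 12.7 (shRNA-4057) and 17.9 and 19.6 CPM (shRNA-4058), with effects of -0.70 (SE 0.13, adjusted p = 9.1e-04) and 0.79 (SE 0.13, adjusted p = 3.6e-04). RSAD2, the antiviral enzyme viperin, changed by -0.88 in Jurkat and 0.51 in HSB-2, and ISG20, an exonuclease that degrades viral RNA, by -0.50 in Jurkat and 0.87 in HSB-2. ISG20 was not called opposite against the WT libraries alone or with either hairpin alone. RSAD2 overlaps CMPK2 on the other strand, so these 2 members may share reads. STAT2 changed by -0.32 in Jurkat and 0.36 in HSB-2. The number of opposite members was 10 against the scrambled libraries alone and 4 against the WT libraries alone, and 7 with each hairpin alone.

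The interferon-stimulated response element was searched on both strands as 2 GAAA units with any 2 bases between them, with overlapping matches allowed. It was in 2.86% of all matched promoters and in 17 of 28 of the interferon list (60.7%). IFI6 (chr1:27672193-27672392, minus strand) and EPSTI1 (chr13:42992242-42992441, minus strand) are shown as the opposite interferon genes with the largest change among those with a match upstream. IFI6 held 3 matches, which began 156, 115 and 93 bases before the start, and EPSTI1 held 1, which began 50 bases before it.
IFI6: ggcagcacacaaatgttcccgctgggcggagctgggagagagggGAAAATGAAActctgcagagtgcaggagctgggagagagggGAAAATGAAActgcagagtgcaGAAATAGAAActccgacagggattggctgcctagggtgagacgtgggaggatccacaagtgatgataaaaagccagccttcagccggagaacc
EPSTI1: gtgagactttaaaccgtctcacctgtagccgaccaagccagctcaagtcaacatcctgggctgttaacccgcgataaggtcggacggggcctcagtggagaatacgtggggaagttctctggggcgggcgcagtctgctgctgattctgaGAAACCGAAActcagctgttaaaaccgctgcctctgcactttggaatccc

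Targets of p53, a substrate pathway of USP7, showed the same direction. Of 26 tested, 2 rose and 9 fell in Jurkat, and 20 rose and 0 fell in HSB-2. The 8 opposite members (30.8%, against 4.03% of all genes) were BAX and BBC3, which promote apoptosis, the repair and arrest genes DDB2 and GADD45A, and TP53INP1, ZMAT3, CCNG1 and TRIM22. The median was -0.12 in Jurkat and 0.43 in HSB-2. DDB2, which recognizes ultraviolet damage in DNA, lay in Jurkat at 49.96 and 49.4 CPM in the WT libraries, 52.2 and 53.5 in the scrambled, 35.7 and 33.9 with shRNA-4057 and 30.2 and 30.2 with shRNA-4058, and in HSB-2 at 76.1 and 75.8 CPM in the WT libraries, 67.3 and 69.1 in the scrambled, 104 and 105 with shRNA-4057 and 113 and 117 with shRNA-4058. All control and hairpin libraries were separate in both lines, and its effects were -0.66 (SE 0.07, adjusted p = 1.1e-05) and 0.61 (SE 0.07, adjusted p = 1.9e-05).

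TP53INP1, a stress-induced coactivator of p53, lay in Jurkat at 24.4 and 22.9 (WT), 23.4 and 23.7 (scrambled), 12.2 and 13.7 (shRNA-4057) and 7.97 and 7.08 CPM (shRNA-4058) and in HSB-2 at 56.9 and 60.3 (WT), 46.7 and 43.1 (scrambled), 107 and 116 (shRNA-4057) and 76.5 and 78.1 CPM (shRNA-4058). Its effects were -1.20 (SE 0.19, adjusted p = 2.8e-04) and 0.87 (SE 0.18, adjusted p = 0.0023), and DDB2 and TP53INP1 were opposite against each control alone and with each hairpin alone. The number of opposite p53 targets was 5 against the scrambled libraries alone, 4 against the WT libraries alone, 3 with shRNA-4057 alone and 8 with shRNA-4058 alone. BBC3 was opposite against neither control alone. TRIM22 was not opposite against the WT libraries alone or with either hairpin alone. GADD45A was not opposite against the WT libraries alone or with shRNA-4057 alone. TP53INP1 overlaps NDUFAF6 on the other strand. BAX changed by -0.31 in Jurkat and 0.46 in HSB-2, BBC3 by -0.29 in Jurkat and 0.53 in HSB-2, GADD45A by -0.37 in Jurkat and 0.83 in HSB-2 and TRIM22 by -0.74 in Jurkat and 0.62 in HSB-2. CDKN1A, the cell cycle inhibitor that is the standard p53 target, gave -0.0038 (adjusted p = 1) in Jurkat and 0.92 (adjusted p = 0.0077) in HSB-2, and MDM2 gave 0.06 (adjusted p = 0.493) and 0.19 (adjusted p = 0.038). Among partners and substrates of USP7, RNF168, a ubiquitin ligase of the DNA damage response, was the single opposite gene of 23 tested (4.35%, near the 4.03% of all genes), at -0.40 (SE 0.06, adjusted p = 3.1e-04) and 0.28 (SE 0.06, adjusted p = 0.0031).

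Genes of T-cell identity and signalling followed this pattern in some members, but the Jurkat medians of the lists were not all below 0. Of 25 genes of the T-cell receptor (TCR) complex and its proximal signalling, 6 fell and 4 rose in Jurkat, and 11 rose and 0 fell in HSB-2. CD3D, CD3E and LCK were opposite. CD3E, a signalling chain of the TCR complex, lay in Jurkat at 542 and 552 CPM in the WT libraries, 604 and 630.4 in the scrambled, 463 and 454 with shRNA-4057 and 447 and 481 with shRNA-4058, and in HSB-2 at 336 and 333 CPM in the WT libraries, 290.1 and 306 in the scrambled, 457 and 448 with shRNA-4057 and 456 and 453 with shRNA-4058. Groups did not overlap in either line, and its effects were -0.33 (SE 0.06, adjusted p = 0.001) and 0.52 (SE 0.06, adjusted p = 3.4e-05). CD3D changed by -0.50 in Jurkat and 0.62 in HSB-2, and the TCR-proximal kinase LCK by -0.33 in Jurkat and 0.25 in HSB-2. CD3D was not called opposite against the WT libraries alone or with shRNA-4058 alone, and LCK was not with shRNA-4057 alone.

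Of 25 thymocyte surface and recombination genes, 12 fell and 2 rose in Jurkat, and 10 rose and 1 fell in HSB-2. IL2RA (CD25), the high-affinity chain of the interleukin-2 receptor, lay in Jurkat at 1.08 and 0.989 CPM in the WT libraries, 1.33 and 1.198 in the scrambled, 0.502 and 0.457 with shRNA-4057 and 0.356 and 0.331 with shRNA-4058, and in HSB-2 at 1.84 and 1.82 CPM in the WT libraries, 1.55 and 2.08 in the scrambled, 3.65 and 3.18 with shRNA-4057 and 5.05 and 5.04 with shRNA-4058. The hairpin libraries lay apart from both kinds of control in each line, and the effects were -1.48 (SE 0.20, adjusted p = 8.0e-05) and 1.22 (SE 0.18, adjusted p = 1.6e-04). CD38, an ectoenzyme of immature and activated lymphocytes, lay in Jurkat at 62.3 and 61.5 (WT), 55.1 and 53.04 (scrambled), 24.7 and 26.5 (shRNA-4057) and 19.2 and 18.1 CPM (shRNA-4058) and in HSB-2 at 52.7 and 54.3 (WT), 80.1 and 78.1 (scrambled), 149 and 149 (shRNA-4057) and 116 and 112 CPM (shRNA-4058). It changed by -1.39 (SE 0.15, adjusted p = 2.2e-05) and 0.99 (SE 0.15, adjusted p = 2.5e-04). CD4 was called opposite as well, but in HSB-2 it lay between 0.08398 and 0.355 CPM in all libraries and its hairpin and control libraries overlapped. Of 26 T-lineage transcription factors, NFATC1 (-0.47 in Jurkat and 0.43 in HSB-2) and the chromatin organizer SATB1 (-0.29 in Jurkat and 0.30 in HSB-2) were opposite (7.69%, near the 4.03% of all genes). The median of that list was 0.10 in Jurkat and 0.36 in HSB-2. SATB1 was opposite against the WT libraries alone, but not against the scrambled libraries alone or with either hairpin alone.

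The cytokine receptor and JAK-STAT list held 5 opposite members of 31 (16.1%, against 4.03% of all genes), all lower in Jurkat and higher in HSB-2. These were IL2RA, the transcription factors STAT3, STAT5A and STAT5B that act below cytokine receptors, and the kinase PIM2, a STAT5 target. STAT5B lay in Jurkat at 202 and 204 (WT), 215 and 215 (scrambled), 166 and 164 (shRNA-4057) and 145 and 151 CPM (shRNA-4058) and in HSB-2 at 357 and 362 (WT), 322 and 331 (scrambled), 423 and 429 (shRNA-4057) and 424 and 441 CPM (shRNA-4058), without overlap of the groups. Its effects were -0.42 (SE 0.06, adjusted p = 1.1e-04) and 0.32 (SE 0.06, adjusted p = 7.2e-04). STAT5A changed by -1.25 in Jurkat and 0.61 in HSB-2, and in Jurkat its scrambled libraries lay at 108 and 107 CPM against 56.8 and 55.96 CPM in the WT ones. STAT5A and STAT5B are neighbors on opposite strands and may share reads. STAT3 changed by -0.35 in Jurkat and 0.66 in HSB-2. The number of opposite members of this list was 7 against the scrambled libraries alone and 4 against the WT libraries alone. With shRNA-4057 alone it was 3 and with shRNA-4058 alone 5.

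Of 20 NF-kB target genes, 6 fell and 3 rose in Jurkat and 10 rose in HSB-2, with 5 (25.0%) opposite: the NF-kB subunits NFKB2 (-0.51 in Jurkat and 0.47 in HSB-2) and RELB (-0.74 in Jurkat and 0.63 in HSB-2), the inhibitors TNFAIP3 (-1.22 in Jurkat and 0.52 in HSB-2) and TNIP1, and the adaptor TRAF1 (-0.54 in Jurkat and 0.76 in HSB-2). TNFAIP3 lay in Jurkat at 99.6 and 99.2 (WT), 161 and 164 (scrambled), 57.9 and 58.5 (shRNA-4057) and 52.4 and 56.9 CPM (shRNA-4058) and in HSB-2 at 35.9 and 36.3 (WT), 21.5 and 21.1 (scrambled), 41.2 and 41.1 (shRNA-4057) and 41.5 and 40.4 CPM (shRNA-4058). The scrambled libraries lay above the WT ones in Jurkat and below them in HSB-2. The list's share of 25.0% opposite stood against 4.03% of all genes. Its number of opposite members was 6 against the scrambled libraries alone and 3 against the WT libraries alone. With shRNA-4057 alone it was 2 and with shRNA-4058 alone 3. ICAM2, an adhesion ligand of lymphocytes, changed by -0.64 (SE 0.07, adjusted p = 1.8e-05) and 0.38 (SE 0.07, adjusted p = 9.0e-04), with no overlap of the groups, and ICAM3 by -0.29 in Jurkat and 0.27 in HSB-2.

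Calls of hypoxia and glycolysis genes depended on the choice of control and of hairpin. Of 33 tested, 14 fell and 2 rose in Jurkat and 16 rose in HSB-2, and 8 were opposite: the glycolytic enzymes HK1, ALDOC, GAPDH and ENO2, the mitophagy receptor BNIP3L, and the hypoxia-induced genes NDRG1, EGLN3 and BHLHE40. These made up 24.2% of the list, against 4.03% of all genes. Against the scrambled libraries alone 13 were opposite in this direction and 1 in the other, and against the WT libraries alone 0 were. With shRNA-4057 alone 2 were opposite and with shRNA-4058 alone 9, a difference that was not tested itself. The Jurkat median was -0.59 against the scrambled and -0.05 against the WT libraries. ALDOC, a brain-type aldolase, lay in Jurkat at 242 and 251 (WT), 391 and 405 (scrambled), 183 and 175 (shRNA-4057) and 157 and 164 CPM (shRNA-4058) and in HSB-2 at 289 and 291 (WT), 255 and 268 (scrambled), 436 and 421 (shRNA-4057) and 665 and 688 CPM (shRNA-4058). Its Jurkat scrambled libraries stood far above all other Jurkat libraries, and its effects over both controls were -0.93 (SE 0.17, adjusted p = 0.0012) and 1.0 (SE 0.18, adjusted p = 6.4e-04). NDRG1 changed by -0.57 in Jurkat and 0.67 in HSB-2 and BHLHE40 by -0.87 in Jurkat and 0.77 in HSB-2.

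Of 37 oxidative phosphorylation genes, 31 fell in Jurkat and 5 rose in HSB-2, where 14.6% of all genes rose. These 5 (13.5%, against 4.03% of all genes) were opposite: NDUFB5 and NDUFS7 of complex I, SDHA of complex II, UQCRC1 of complex III and COX8A of complex IV. The median was -0.33 in Jurkat and 0.06 in HSB-2, so as a list these genes fell in Jurkat with little change in HSB-2. The number of opposite members was 4 against the scrambled libraries alone and 5 against the WT libraries alone. It was 1 with shRNA-4057 alone and 6 with shRNA-4058 alone. SDHA lay in Jurkat at 150.3 and 153 (WT), 158 and 165 (scrambled), 124 and 121 (shRNA-4057) and 113 and 119 CPM (shRNA-4058) and in HSB-2 at 199 and 199 (WT), 216 and 225 (scrambled), 254 and 249 (shRNA-4057) and 253 and 265 CPM (shRNA-4058), without overlap of the groups, and changed by -0.39 (SE 0.06, adjusted p = 1.3e-04) and 0.28 (SE 0.05, adjusted p = 0.0014). COX8A changed by -0.45 in Jurkat and 0.26 in HSB-2 and UQCRC1 by -0.33 in Jurkat and 0.30 in HSB-2. Of 30 DNA replication genes, the licensing factor CDT1 was opposite, at -0.73 (SE 0.09, adjusted p = 5.3e-05) and 0.41 (SE 0.09, adjusted p = 0.0034), as was the origin recognition subunit ORC1 (-0.24 in Jurkat and 0.20 in HSB-2). Of 25 mitotic genes, CCNB2 (-0.29 in Jurkat and 0.19 in HSB-2) and AURKA (-0.30 in Jurkat and 0.22 in HSB-2) were opposite. These shares (6.67% and 8.0%) are near the 4.03% of all genes, and against the WT libraries alone or with shRNA-4057 alone 0 mitotic genes were opposite. The autophagy gene WIPI1 (-1.15 in Jurkat and 0.52 in HSB-2) and the NOTCH ligand JAG1 (-0.58 in Jurkat and 0.72 in HSB-2) were opposite in the same direction. JAG1 was not called opposite against either control alone or with shRNA-4058 alone.

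**Figure D3:**
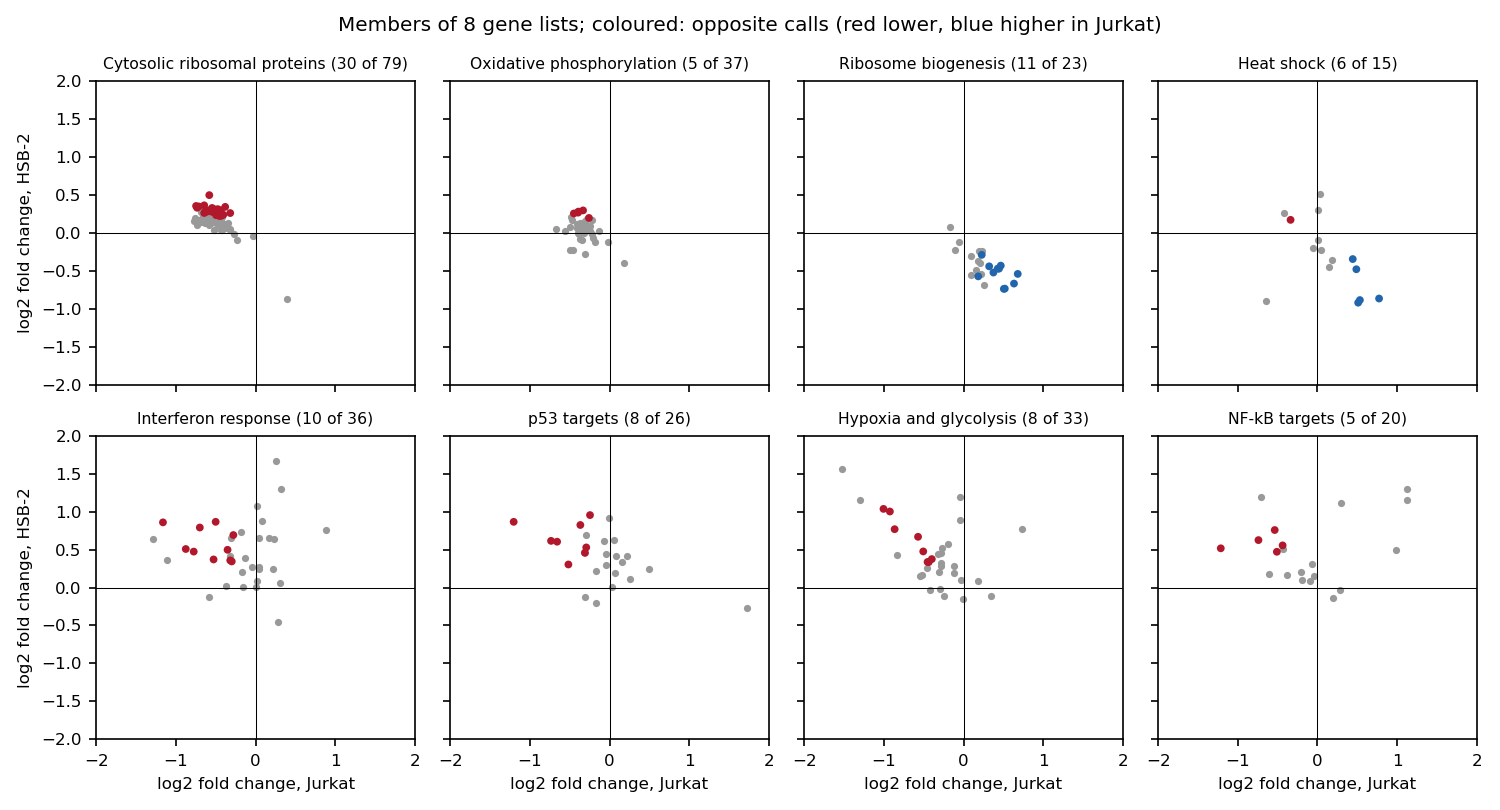
Log2 fold change (USP7 shRNA over control) of the tested members of 8 gene lists, Jurkat on the horizontal and HSB-2 on the vertical axis, with the number of opposite members of the number tested in each title. Red members fell in Jurkat and rose in HSB-2, blue members did the reverse, and gray members were not opposite; 30 of 79 ribosomal protein genes are red and 11 of 23 ribosome biogenesis genes are blue.

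Other lists had few opposite members or none. Of 28 cholesterol and fatty acid synthesis genes, 26 fell in Jurkat and 3 fell in HSB-2, and 0 were opposite, with medians of -0.61 and -0.15. Here 13 members had a called interaction and 7 had opposite signs. The counts moved with the hairpin, a difference that was not tested itself. With shRNA-4057 alone 22 members fell and 0 rose in HSB-2 (median -0.44), and with shRNA-4058 alone 8 rose and 2 fell there (median 0.08). The number of opposite members was 1 against the scrambled libraries alone, 0 against the WT libraries alone, 0 with shRNA-4057 alone and 8 with shRNA-4058 alone. Of 28 activation and immediate early genes, 13 rose in HSB-2 and 7 fell and 1 rose in Jurkat, and 0 were opposite. Against the scrambled libraries alone 11 fell and 3 rose in Jurkat (median -0.24) and 6 were opposite, whereas against the WT libraries alone 4 fell and 11 rose (median 0.41) and 1 was opposite, so that the Jurkat direction of this list turned with the control. The ATF4, Polycomb, cytotoxic effector, RGS and N-glycan lists had 0 opposite members of 29, 29, 17, 11 and 19 tested. With a single control or hairpin, up to 4 ATF4 members (shRNA-4058 alone, higher in Jurkat) and up to 3 N-glycan members (scrambled alone, lower in Jurkat) were opposite. So were up to 2 Polycomb members (shRNA-4058 alone), 1 cytotoxic effector member (scrambled alone) and 1 RGS member (WT alone), all lower in Jurkat.

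**Figure D4:**
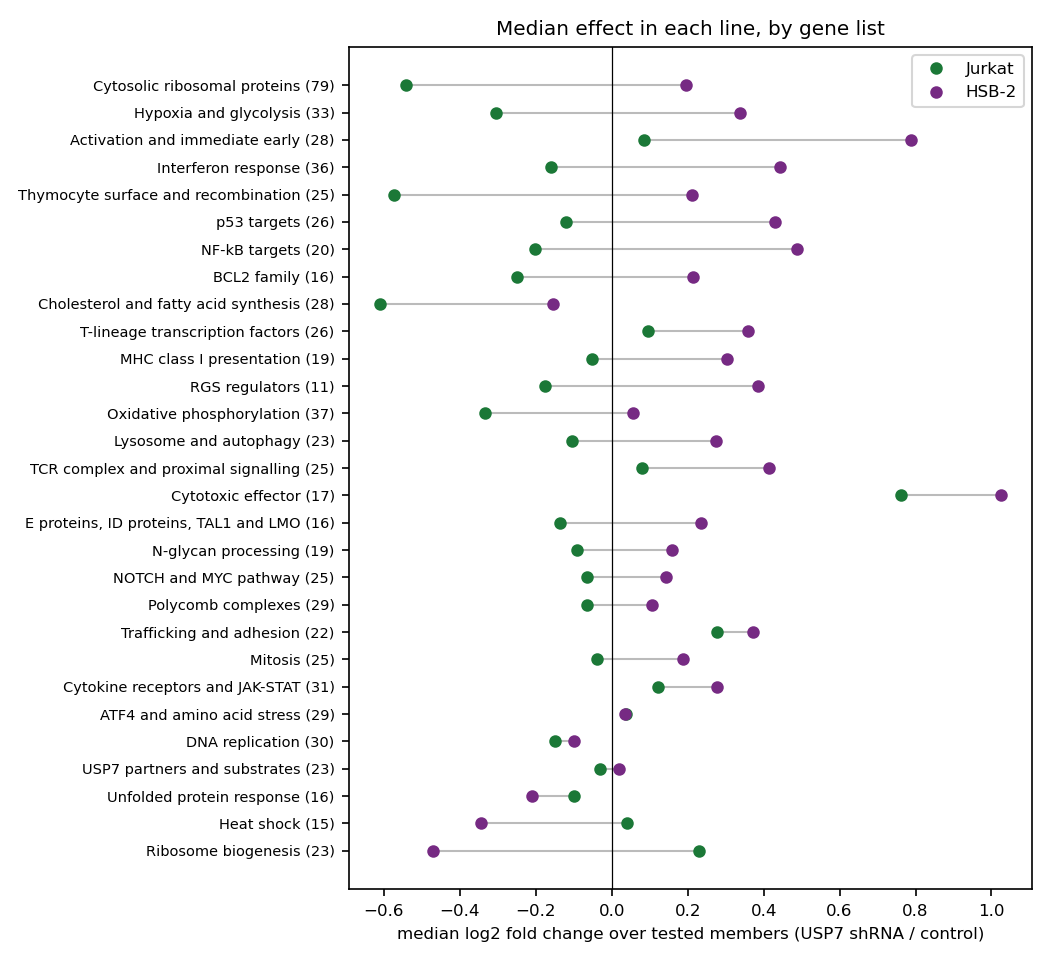
Median log2 fold change (USP7 shRNA over control) over the tested members of each of 29 gene lists in Jurkat (green) and HSB-2 (purple), with the number tested in parentheses and lists in order of the median interaction. Ribosomal protein genes have medians of -0.54 and 0.20 and ribosome biogenesis genes of 0.23 and -0.47.

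The study asked whether USP7 loss acts on E-protein targets of thymocyte development, and named RAG1 and PTCRA among them. By gene set enrichment against scrambled cells it reported E-protein targets, taken as a set, as lower in both lines. No such set was tested here. The paper also stated that HSB-2 cells lack RAG1 and PTCRA expression. CD69 was examined as well, a gene near which the paper found TAL1, E proteins and USP7 bound in Jurkat. RAG1, a recombinase of antigen receptor genes, lay in Jurkat at 21.3 and 20.7 (WT), 26.3 and 25.6 (scrambled), 3.58 and 3.54 (shRNA-4057) and 12.4 and 12.7 CPM (shRNA-4058) and fell there by 1.54 on the log2 scale (adjusted p = 0.0039). In HSB-2 it lay between 0.0398 and 0.134 CPM in all libraries, near the limit of detection, and its interaction was 1.46 (adjusted p = 0.159). With shRNA-4057 alone the interaction was called, at 2.36 (adjusted p = 0.0116), and with shRNA-4058 alone it was 1.01 (adjusted p = 0.109). RAG1 overlaps RAG2 on the other strand. PTCRA, the pre-TCR alpha chain, lay in Jurkat at 1.22 and 1.33 (WT), 1.26 and 1.08 (scrambled), 0.299 and 0.243 (shRNA-4057) and 0.744 and 0.943 CPM (shRNA-4058), at -1.13 (adjusted p = 0.0354), and in HSB-2 7 of 8 libraries were at 0 counts. CD69, an early activation marker, lay in Jurkat at 26.9 and 25.98 (WT), 58.6 and 50.8 (scrambled), 19.6 and 21.03 (shRNA-4057) and 20.6 and 19.3 CPM (shRNA-4058) and in HSB-2 at 94.01 and 101 (WT), 26.6 and 25.2 (scrambled), 109 and 116 (shRNA-4057) and 140.2 and 131 CPM (shRNA-4058). Its hairpin libraries were all below the controls in Jurkat and all above them in HSB-2, but its effects of -1.01 (adjusted p = 0.0572) and 1.01 (adjusted p = 0.0519) missed the threshold while its interaction of 2.02 (adjusted p = 0.0075) was called. CD69 was called opposite against the scrambled libraries alone (-1.44 in Jurkat and 2.26 in HSB-2) and against the WT libraries alone (-0.37 in Jurkat and 0.39 in HSB-2), but with neither hairpin alone. TCF12 (HEB), an E protein, changed by -0.19 (SE 0.05, adjusted p = 0.0162) and 0.17 (SE 0.05, adjusted p = 0.0303), and was called opposite against neither control alone.

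The calls of opposite genes depended on the control and the hairpin. All 1449 kept their signs in both lines against each control alone and with each hairpin alone, but these settings use subsets of the libraries on which the genes were called and are no independent check of direction. Each of these settings had its own background, with 7.93% of tested genes opposite against the scrambled and 2.68% against the WT libraries, and 2.68% with shRNA-4057 and 8.31% with shRNA-4058. Of the 1449, 1040 (71.8%) were also called opposite against the scrambled libraries alone and 411 (28.4%) against the WT libraries alone, 461 (31.8%) with shRNA-4057 alone and 985 (68.0%) with shRNA-4058 alone. Called in all of these settings were 212 (14.6%), of which 146 fell in Jurkat and 66 rose there. Of the 78 opposite genes that the rule for named genes gave, 67 were opposite against the scrambled libraries alone, 39 against the WT libraries alone, 40 with shRNA-4057 alone and 49 with shRNA-4058 alone, and 26 in all of these settings. The controls themselves differed, with 6024 genes (27.6%) called between scrambled and WT libraries in Jurkat and 7843 (35.9%) in HSB-2. Among the opposite genes, this difference was called with the sign contrary to the shRNA effect in 659 (45.5%) in Jurkat and 369 (25.5%) in HSB-2. The part of these control differences in the opposite calls was not tested.

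**Figure D5:**
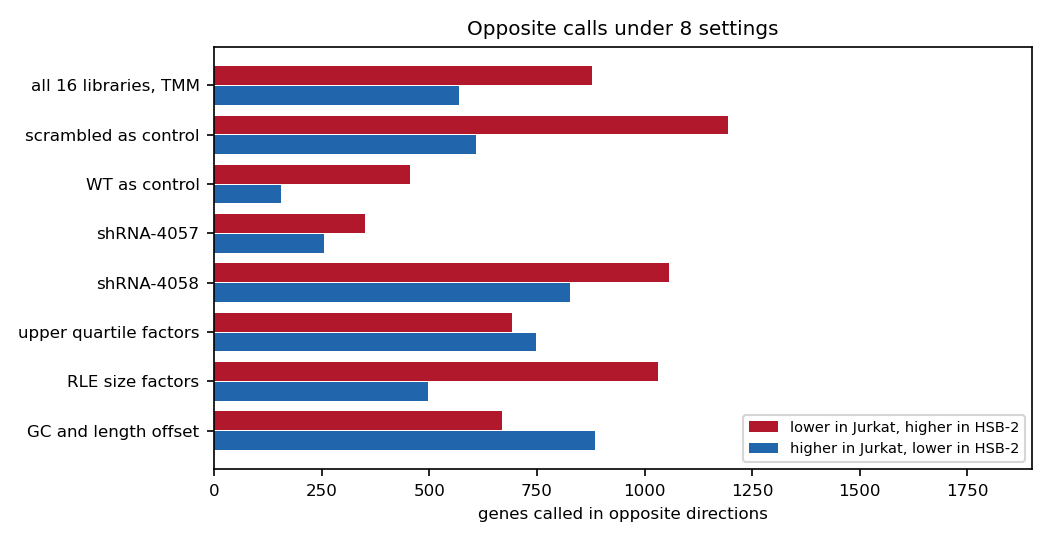
Number of genes called opposite (horizontal axis) in each direction under 8 settings of control, hairpin or scaling. With all libraries and TMM scaling the counts are 879 and 570, and against the WT libraries alone they are 454 and 156.

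The 2 directions differed in the properties of their genes. Genes that rose in Jurkat and fell in HSB-2 were higher in HSB-2 than in Jurkat control cells in 84.4%, and those that fell in Jurkat and rose in HSB-2 in 31.1%, against 51.1% of all genes. The same control libraries enter the effects by which these genes were chosen, so part of this contrast is set by the choice. Protein-coding genes made up 65.1% of the former and 87.1% of the latter, against 63.6% of all genes. The median GC content of the longest transcript was 45.9% in genes that rose in Jurkat, 52.4% in those that fell and 48.5% in all genes, and the median lengths were 3615, 2764.5 and 2732 bases. Across 12253 genes the HSB-2 effect had a Spearman rho of 0.25 with GC content and the Jurkat effect one of 0.22 with length. When each library was corrected for GC content and length, 668 genes were opposite with the fall in Jurkat and 885 with the rise, so the larger direction changed with this correction too.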

How the data were processed

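RNA-seq libraries of Jurkat and HSB-2 cells were analysed (total RNA depleted of ribosomal RNA, stranded kit, NovaSeq sequencer). The authors aligned reads with BWA to GRCh37-lite and transcript sequences, and counted them per gene with HTSeq 0.6.1p1 per the labels. The deposited values were raw counts, and the strand setting and annotation release are not given in the sources used here. Coordinates came from GENCODE on GRCh37 (found for 96.4% of tested genes), and promoters from RefSeq on GRCh38.p14.

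Counts were filtered with filterByExpr, scaled by TMM (factors 0.883 to 1.15) and fitted in edgeR 4.0.16 (R 4.3.3) with 4 groups of line and arm, so the hairpins and both kinds of control added to the error. Contrasts were tested by quasi-likelihood F-tests with Benjamini-Hochberg adjustment, and the SE is the absolute log2 fold change over the square root of F. In simulated data, 71 of 100 genes changed 1.5-fold and 94 of 100 changed 2-fold in opposite directions were recovered, and 0 of 21364 unchanged genes were called opposite. The simulated libraries were drawn independently, without differences between WT and scrambled cells or between the hairpins. These rates therefore do not carry over to the real libraries, where such differences were called. The 2 libraries of a group always differed beyond counting noise, and each was used as its own sample. That difference does not show that they were independent. The biological coefficient of variation was 4.19% with 8 groups and 15.6% with 4 groups, so the libraries of a group lay close together. The adjusted p-values treat the 4 libraries of an arm as independent, which was not tested. The limit of 3 counts covers counting error only.

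Named genes were the 10 per direction with the largest smaller effect of the 2 lines, without overlap of groups and at 1 CPM or more, up to 4 opposite genes per list, and USP7, RAG1, PTCRA and CD69. Members of the 29 lists that are named with single values, and the printed promoters, were chosen after their values were seen. Members and lists were chosen with earlier results of these data known. Other controls, hairpins, scalings, filters, DESeq2 1.42.0, a replicate block, thinning, leaving out libraries and, chosen after seeing the data, a GC and length offset and leaving out both Jurkat scrambled libraries were tried.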

Additional observations from a re-analysis of the deposited data

Results flagged for a closer look

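In 20 genes, the 10 in each direction with the largest change, the effect of USP7 shRNA differed between the lines by the interaction term of edgeR, and every shRNA library moved one way in Jurkat and the other way in HSB-2. The interactions (log2 scale, HSB-2 minus Jurkat) were 3.69 for APLN, 3.45 for APP, 2.96 for IRF5, 2.95 for ZNF853, 2.81 for FAM13A, 2.57 for TTYH1, 2.41 for TMIGD2, 2.27 for MCTP2, 2.11 for PPP1R3B and 2.04 for EGLN3. In the reverse direction they were -2.60 for KCTD11, -2.40 for DOK3, -2.25 for ITGA10, -2.19 for SNORD12B, -2.02 for PRR22, -1.94 for CFAP44, -1.86 for MIR17HG, -1.85 for PCDHGB6, -1.83 for ZDHHC11 and -1.58 for QRICH2. A called interaction and the lack of overlap were conditions for choosing these genes, so that neither is a further result about them.

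A single library lay far from the other 3 of its group (Dixon's 95% criterion, groups of 4) in 5 of 328 groups of named genes. The criterion assumes 4 independent values of 1 kind, whereas each group joined 2 kinds of control or 2 hairpins. The count is therefore not set against a chance rate. The 5 were PRR22 at 2.68 CPM in HSB-2 WT replicate 2, ORC1 at 96.7 CPM in HSB-2 shRNA-4057 replicate 2, HSPH1 at 87.7 CPM in HSB-2 shRNA-4058 replicate 2, NDUFB5 at 32.4 CPM in Jurkat shRNA-4058 replicate 1 and PTCRA at 0.00569 CPM in HSB-2 scrambled replicate 2, where all other HSB-2 libraries were at 0.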

How the results depend on the processing

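Numbers of calls depended on which controls and hairpins were used and on how groups were formed, and the cause was not tested. Against the WT libraries alone 4338 interactions, 454 opposite genes that fell in Jurkat, 156 that rose there, 2391 genes in Jurkat and 3899 in HSB-2 were called. With shRNA-4057 alone these were 4990, 350 and 256, with 3744 in HSB-2. With 8 groups, whose error is the spread of replicates alone (4.19% against 15.6% as a biological coefficient of variation), 12599 interactions, 2931 and 2103 opposite genes and 11821 and 11896 genes in Jurkat and HSB-2 were called. Opposite genes that rose in Jurkat numbered 363 when all genes with at least 1 count were fitted and 885 after the GC and length correction. Without both Jurkat scrambled libraries 5055 interactions, 402 and 184 opposite genes and 1837 genes in Jurkat were called.

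Leaving out 1 library at a time gave 6494 to 7824 interactions, 630 to 959 opposite genes that fell in Jurkat, 371 to 583 that rose there, 3692 to 5816 genes in Jurkat and 4471 to 6306 in HSB-2. The lowest values for the rise in Jurkat came without Jurkat scrambled replicate 2 (371) or replicate 1 (374), and the lowest for Jurkat without its scrambled replicate 2. The USP7 interaction lay between 0.28 and 0.54, and was called at 0.54 without either Jurkat shRNA-4058 library (adjusted p = 0.033 and 0.037 by edgeR), at 0.78 with shRNA-4057 alone (adjusted p = 8.7e-05) and at 0.46 with 8 groups (adjusted p = 1.1e-10).

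With the replicate number of each line as a replicate block, 6812 interactions, 647 and 395 opposite genes, 4767 genes in Jurkat and 5174 in HSB-2 were called. Same-numbered libraries correlated between -0.169 and 0.158 in Jurkat and between -0.0975 and 0.0665 in HSB-2 in their deviations from the group means, so the numbers do not pair the samples.

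Over 81 named genes other than USP7, most of them chosen for a called interaction, 2410 of 2427 alternative values of the interaction kept direction and side of the threshold, and 74 genes did so throughout. The opposite calls were lost more often, and of 78 named opposite genes 26 kept theirs against each control alone and with each hairpin alone. The interaction was lost for CD4, RELB, ICAM3 and CD69 with shRNA-4057 alone, for MYC and ICAM3 against WT alone and for CD69 without both Jurkat scrambled libraries. PTCRA, above 0 in 1 HSB-2 library, changed sign from -0.17 to 1.16 (WT alone), 0.88 (shRNA-4057 alone), 0.39 (8 groups), 1.08 (DESeq2) and 0.96 (thinned), and to between -0.50 and 1.13 when 1 library was left out, so no direction is given for it. In the deepest library, 3 counts are 0.0127 CPM, and in the shallowest 0.0392 CPM, below which no change can be seen.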

Other observations

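Several lists held many rises in HSB-2, where 14.6% of all genes rose, and few opposite members. Of 23 lysosome and autophagy genes, 13 rose in HSB-2, and 5 fell and 2 rose in Jurkat. WIPI1 was the opposite member (4.35%, near the 4.03% of all genes). With shRNA-4058 alone 6 members were opposite in this direction (26.1%, against 4.66% of all genes in that setting), and with shRNA-4057 alone 0. Against the scrambled libraries alone 3 were, and against the WT libraries alone 1 in each direction. Of 19 genes of MHC class I antigen presentation, 11 rose and 3 fell in HSB-2, with 4 higher and 1 lower in Jurkat. PDIA3 was opposite (5.26%, against 2.61% of all genes in its direction). Against the scrambled libraries alone 4 members of that list were opposite in the other direction, lower in Jurkat and higher in HSB-2, and PDIA3 was opposite against neither control alone. In the trafficking and adhesion list, 14 of 22 rose in HSB-2 and 8 in Jurkat. In both lines 6 were called in the same direction, as were 2.31% of all genes. The opposite members were 2 (9.09%, against 4.03% of all genes).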
